A study of Mus musculus with 6 samples.

Results

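Levels of the genes for 9 regulators of G-protein signalling (RGS), among them Rgs2, were compared in mouse embryonic fibroblasts (MEF) that were wild type (WT) or lacked an RNA-binding protein of the TIA family, either TIA1 or TIAR. The members were the probes of a mouse expression array whose gene symbol was Rgs2, Rgs3, Rgs4, Rgs5, Rgs10, Rgs12, Rgs16, Rgs17 or Rgs19, which gave 9 of 34797 gene names and 18 of 55681 probes on the array. All cells were immortalized MEF. The WT line had the strain label W4, the line knocked out for TIA1 (TIA1 KO) the label BALB/c and the line knocked out for TIAR (TIAR KO) the label C57BL/6, so the effect of a deletion cannot be told apart from that of the strain or the line. Total RNA of 2 independent replicates per group was labelled with Cy3 and hybridized to 6 arrays of 1 slide. On that slide TIA1 KO filled its own row, and row and TIA1 loss therefore cannot be told apart. The set was selected on the measured Rgs2 level, which had been seen to be lower in both knockouts in these same data. For that reason the differences from WT of the 9 genes are given as a description, without p-values, and a count of members past the array-wide thresholds is no evidence for the set.

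RGS proteins bind the alpha subunit of a heterotrimeric G protein and speed up its hydrolysis of GTP, which ends the signal that a receptor started. Their genes differ in which alpha subunits the proteins act on. Rgs2 prefers the Gq class, Rgs3, Rgs4, Rgs5 and Rgs16 act on the Gi and Gq classes, Rgs10 and Rgs12 on the Gi class, and Rgs17 and Rgs19 on the Gi and Gz proteins. In many cell types Rgs2 is known as a gene that is quickly induced by hormones and other stimuli, and Rgs5 is widely used as a marker of pericytes.

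Levels are normalized log2 intensities per array, always given for replicates 1 and 2 of a group in that order. Different probes bind with different strength, so the level of a gene was compared between arrays and not with that of another gene. Where a probe is called well above background, the rating is that of the scanner software. The arrays were not equal in this respect. The median raw intensity of the probes was 152 and 140 for WT, 458 and 218 for TIA1 KO and 136 and 119 for TIAR KO. Probes well above background numbered 23531 and 26254 in WT, 16000 and 19920 in TIA1 KO, and 24754 and 25985 in TIAR KO. Fewer probes were therefore rated above background in TIA1 KO, which bears on the dim members. Each group had 2 arrays, and this number sets how precise any value can be.

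The probe that carries the Rgs2 result is shown here because its signal is the base of most statements on that gene. It is the brighter of the Rgs2 probes, lies on the minus strand of chr1:145848830-145848889 (mm9) and begins at base 587 of the transcript, near the end of the coding part. The capitals mark the whole stretch of 60 bases that binds labelled RNA.
Rgs2 probe: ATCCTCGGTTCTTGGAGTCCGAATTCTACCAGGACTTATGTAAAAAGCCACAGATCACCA

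The genes deleted in the knockouts were read first. Tial1, which encodes TIAR, measured 11.71 and 11.09 in WT, 11.85 and 11.49 in TIA1 KO and 10.00 and 9.65 in TIAR KO on the probe at chr7:135583306-135583365. The TIAR KO arrays were thus the lowest, although signal remained. On the other Tial1 probe (chr7:135585977-135586036) the value of WT replicate 1 was left out as an outlier spot, WT replicate 2 measured 13.22, the TIA1 KO arrays 14.07 and 13.69, and the TIAR KO arrays 9.57 and 11.60. Tia1 on the probe at chr6:86381136-86381195 measured 9.56 and 9.90 in WT, 7.57 and 8.65 in TIA1 KO and 9.98 and 8.63 in TIAR KO. On the probe at chr6:86383073-86383132 it measured 10.72 and 8.54 in WT, 7.87 and 8.44 in TIA1 KO and 9.56 and 9.58 in TIAR KO. Both had their lowest array in TIA1 KO, and on the first the TIA1 KO and TIAR KO arrays overlapped. A further Tia1 probe (chr6:86375220-86375279) was near background in WT, at 7.44 and 7.25, and measured 7.88 and 8.54 in TIA1 KO. Whether any of these probes lies in the deleted part is not given in the sources used here, so they check the labels only in part.

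Rgs2 was far lower in both knockouts than in WT. Its brighter probe measured 12.56 and 12.95 in WT, 8.48 and 7.82 in TIA1 KO, and 8.34 and 8.39 in TIAR KO. The WT arrays stood more than 4 log2 units above every knockout array. The means were 12.76 ± 0.28 for WT, 8.15 ± 0.47 for TIA1 KO and 8.37 ± 0.03 for TIAR KO (SD, n = 2). The difference from WT was -4.61 ± 0.30 (SE) in TIA1 KO, or 24.4-fold lower, where neither array was well above background. In such folds each dim array was set to its own value or, if higher, to the lowest value rated well above background on it. Where this changed a fold, the fold is given as 'at least', which does not cover the spread between arrays. For Rgs2 it changed nothing. Without TIA1 KO replicate 1 or 2 the difference was -4.94 and -4.28. In TIAR KO both arrays were well above background, the difference was -4.39 ± 0.18 (SE), and the level was 21-fold lower. In the authors' own normalized log2 table the differences of the same probe were -4.98 in TIA1 KO and -4.15 in TIAR KO.

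The second Rgs2 probe lies at chr1:145847227-145847286, 1603 bases further toward the 3′ end of the transcript. It measured 7.30 and 7.24 in WT, 6.62 and 6.74 in TIA1 KO, and 6.87 and 6.76 in TIAR KO. No array rated it well above background, WT included, so it gives no fold and no second reading of the gene.

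**Figure D1:**
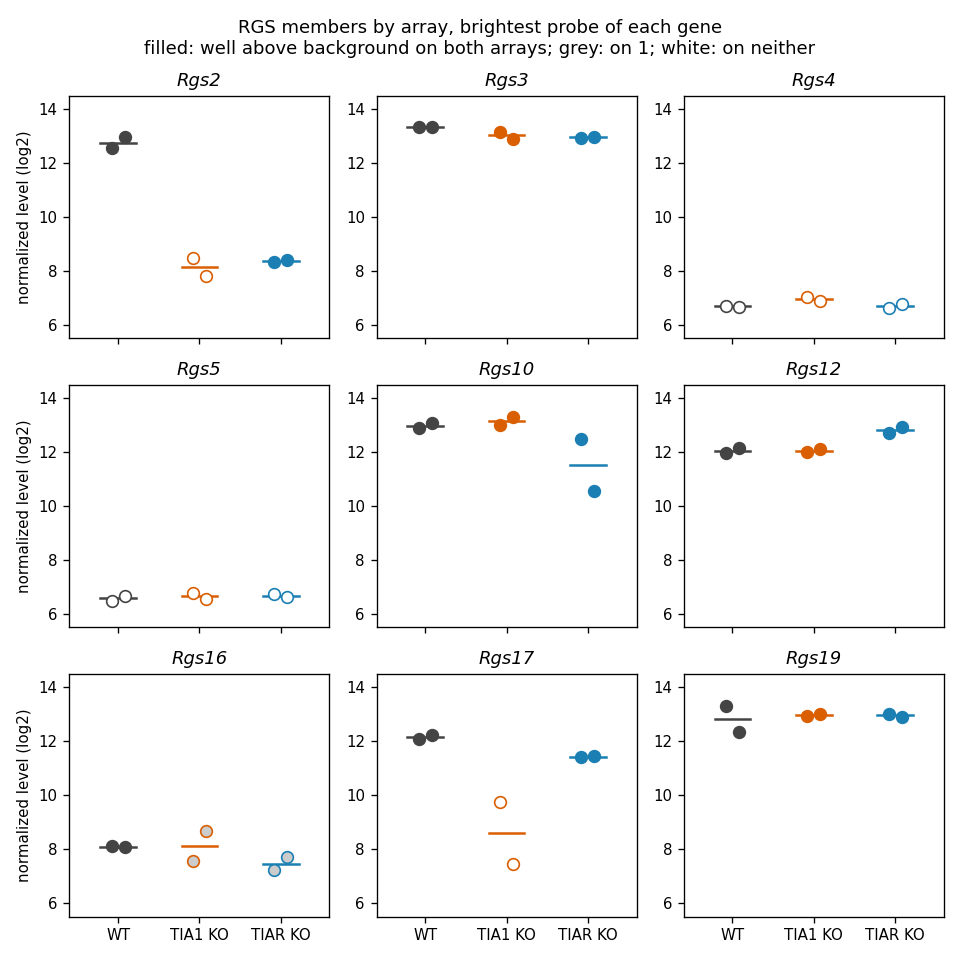
Normalized level (log2, vertical axis) of the brightest probe of each of the 9 RGS genes on every array, with the group mean as a line. Filled points stand for groups with both arrays well above background, grey points for groups with 1 such array and white points for groups with none. The Rgs2 arrays of both knockouts lie below 9 and its WT arrays above 12, and the TIA1 KO arrays of Rgs17 lie at 9.75 and 7.46.

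Of the 9 member genes, 1 lay past the thresholds used for the whole array, an adjusted p under 0.05 and a 2-fold change, in TIA1 KO (Rgs2, lower, the gene on which the set was selected), beside 3.54% of all probes (2.18% higher and 1.36% lower). In TIAR KO the count was 1 as well (again Rgs2, lower), beside 5.76% of all probes (3.39% higher and 2.37% lower). Since the set was built around Rgs2 in these comparisons, nothing is read from these counts or shares, and both comparisons used the same WT arrays. Without WT replicate 1 or 2 no probe on the array passed in TIA1 KO, while 7202 and 7415 had an unadjusted p under 0.05, and the Rgs2 difference was -4.81 and -4.41. Over the 9 genes the median difference from WT was 0.03 in TIA1 KO and -0.38 in TIAR KO, beside -0.09 and -0.02 over all probes. The arrays of the groups did not overlap for 4 of the 9 genes in TIA1 KO and for 6 of the 9 in TIAR KO, while this held for 65.3% and 49% of all probes.

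Rgs17, a regulator of the Gi and Gz proteins, was the other member with a large difference in TIA1 KO. It measured 12.08 and 12.23 in WT, 9.75 and 7.46 in TIA1 KO, and 11.40 and 11.46 in TIAR KO (chr10:4513546-4513605). The order was WT, then TIAR KO, then TIA1 KO, with no overlap between any of the groups. The difference in TIA1 KO was -3.55 ± 0.80 (SE), or 11.7-fold lower, with neither array well above background. The TIA1 KO replicates were themselves 2.28 log2 units apart, so the size of this difference is loosely fixed. Without TIA1 KO replicate 1 it was -4.69 and without replicate 2 it was -2.40. With the processed signal it was -5.51, and with the arrays only set to a common median -4.91. In TIAR KO the difference was -0.72 ± 0.15, under the 2-fold limit, and -1.11 when the arrays were only set to a common median.

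Rgs10 and Rgs12, both regulators of the Gi class, differed from WT in TIAR KO only on some readings. Rgs10 (chr7:135517256-135517315) measured 12.90 and 13.07 in WT, 13.01 and 13.31 in TIA1 KO, and 12.48 and 10.56 in TIAR KO. WT and TIA1 KO overlapped, and the TIAR KO arrays lay below both but 1.92 apart. The difference of -1.46 ± 0.61 in TIAR KO rested on replicate 2. It was -0.50 without that array and -2.42 without replicate 1. In TIA1 KO the difference was 0.17 ± 0.19, and -1.38 when the arrays were only set to a common median, a setting that moved the median of all probes to -0.67.

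Rgs12, a large member that carries several other protein-binding domains, had 3 probes that did not move alike. Its brightest probe (chr5:35376032-35376091) measured 11.97 and 12.14 in WT, 11.99 and 12.10 in TIA1 KO, and 12.72 and 12.92 in TIAR KO. Both TIAR KO arrays were above all others, by 0.77 ± 0.16 on average against WT (0.33 with the common median), and TIA1 KO differed from WT by -0.01 ± 0.16 (-1.59 with the common median). A probe that begins 104 bases further along measured 8.71 and 8.90 in WT, 8.54 and 8.89 in TIA1 KO, and 8.81 and 8.79 in TIAR KO, with all groups overlapping. The third probe (chr5:35374884-35374943) measured 7.90 and 8.37 in WT, 6.77 and 7.28 in TIA1 KO, and 7.96 and 8.19 in TIAR KO. There TIA1 KO was low, by -1.11 ± 0.28 and with neither array well above background, which left a fold of at least 1.39. With the processed signal that difference was -0.22. The higher Rgs12 level in TIAR KO was therefore read on 1 of its 3 probes.

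Rgs3 was measured by 4 probes, of which 2 were well above background on all arrays. The brightest (chr4:62363993-62364052) measured 13.34 and 13.33 in WT, 13.15 and 12.90 in TIA1 KO, and 12.94 and 12.98 in TIAR KO. The knockouts were lower by -0.31 ± 0.17 and -0.38 ± 0.14, without overlap with WT. The other bright probe, 785 bases upstream, overlapped between WT and both knockouts, with differences of 0.01 in TIA1 KO (-1.42 with the common median) and -0.06 in TIAR KO. With the arrays set to a common median the brightest probe differed by -1.89 in TIA1 KO.

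Rgs19, which like Rgs17 acts on Gi proteins, had 3 bright probes, and none separated a knockout from WT. On the brightest the difference was 0.15 in TIA1 KO, -1.43 with the common median, and 0.14 in TIAR KO. The brightest (chr2:181423447-181423506) measured 13.31 and 12.34 in WT, 12.93 and 13.03 in TIA1 KO, and 13.03 and 12.92 in TIAR KO. The next measured 12.11 and 13.03, 12.53 and 12.52, and 11.81 and 13.09 in these groups, and the last 12.73 and 12.64, 12.72 and 12.38, and 11.68 and 12.80. Single arrays of WT and of TIAR KO were up to 1.28 apart, and not in the same order on each probe.

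Rgs16 (chr1:155592244-155592303) was dim, at 8.11 and 8.07 in WT, 7.57 and 8.68 in TIA1 KO, and 7.21 and 7.72 in TIAR KO. It was well above background on both WT arrays and on 1 array of each knockout. WT lay between the TIA1 KO replicates, and above both TIAR KO arrays by 0.63 ± 0.21 on average, a difference from WT that was -1.77 with the processed signal.

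Rgs4 and Rgs5 were not well above background on any array. Their 3 probes read between 6.49 and 7.04, so no fold was computed. Both Rgs4 probes read slightly higher on the TIA1 KO arrays than on the WT arrays, without overlap and without being above background. In all, 7 member probes were well above background on all 6 arrays, 5 on some and 6 on none.

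**Figure D2:**
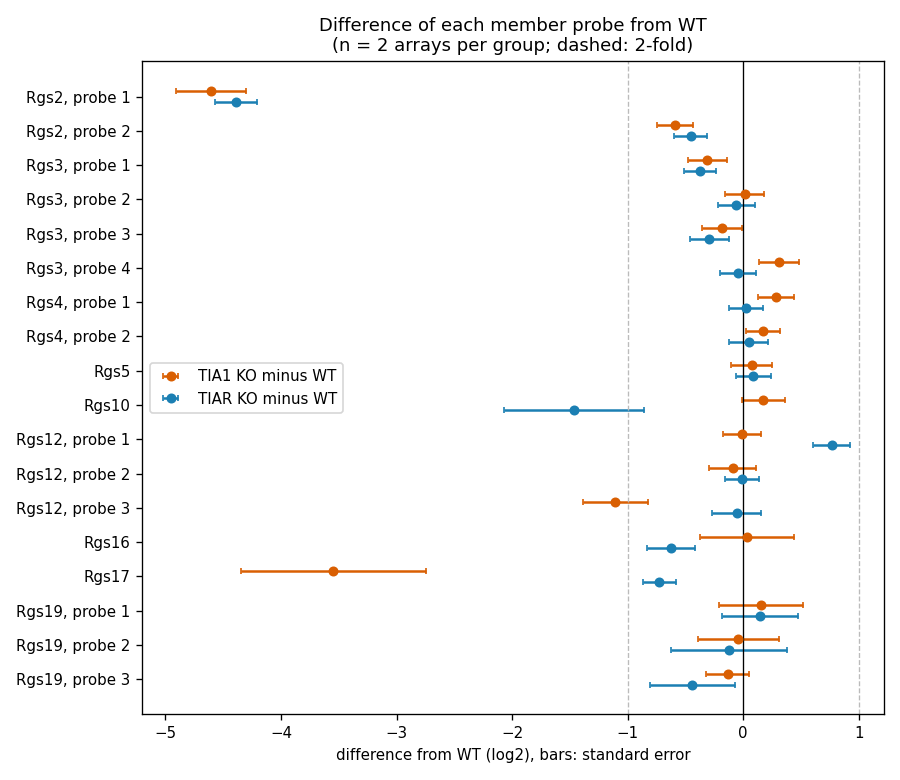
Difference from WT (log2, horizontal axis) of each of the 18 member probes in TIA1 KO and TIAR KO, with the standard error as a bar, and 2 arrays per group. Probes of a gene are numbered from the brightest. Only the brighter Rgs2 probe lies beyond -4 in both knockouts, and Rgs17 reaches -3.55 in TIA1 KO.

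The knockouts were also compared with each other, a contrast that did not enter the choice of the genes other than Rgs2, though it uses the same knockout arrays. Of all probes, 3.35% passed both thresholds there (1.72% higher and 1.63% lower in TIAR KO) and 22.6% had an unadjusted p under 0.05, and the arrays of the groups did not overlap for 60% of them, as for 4 of the 9 members. None of the 9 members did in limma after Benjamini-Hochberg adjustment, while 2 of the 9 brightest probes, those of Rgs12 and Rgs17, had an unadjusted p under 0.05. Rgs2 had been seen to be low in both knockouts, so for it the contrast is a description, without a p-value. It differed by 0.22 ± 0.27 (SE) between TIAR KO and TIA1 KO. The value moved to 0.82 in the authors' table and 1.41 with the processed signal, and was -0.11 without TIA1 KO replicate 2. TIA1 KO was read near background.

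Rgs17 was higher in TIAR KO than in TIA1 KO by 2.82 ± 0.80 (limma, adjusted p = 0.16, 95% interval 0.67 to 4.97), or 7.07-fold. Both TIAR KO arrays lay above both TIA1 KO arrays. This difference did not pass the threshold, and the value was 3.96 and 1.68 without TIA1 KO replicate 1 or 2. It was 4.67 with the processed signal and 3.80 with the common median, where it passed. Rgs12 was higher by 0.78 ± 0.17 (limma, adjusted p = 0.11; 95% interval 0.32 to 1.23) and Rgs10 lower by -1.64 ± 0.68 (limma, adjusted p = 0.26; 95% interval -3.48 to 0.21). The Rgs10 value was -2.60 without TIAR KO replicate 1, -0.68 without replicate 2 and -0.51 with the common median. For Rgs3 and Rgs19 the differences were -0.07 (95% interval -0.53 to 0.40) and -0.01 (95% interval -0.43 to 0.42). With the common median these turned to 1.08 and 1.13, and the Rgs12 difference was 1.91.

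**Figure D3:**
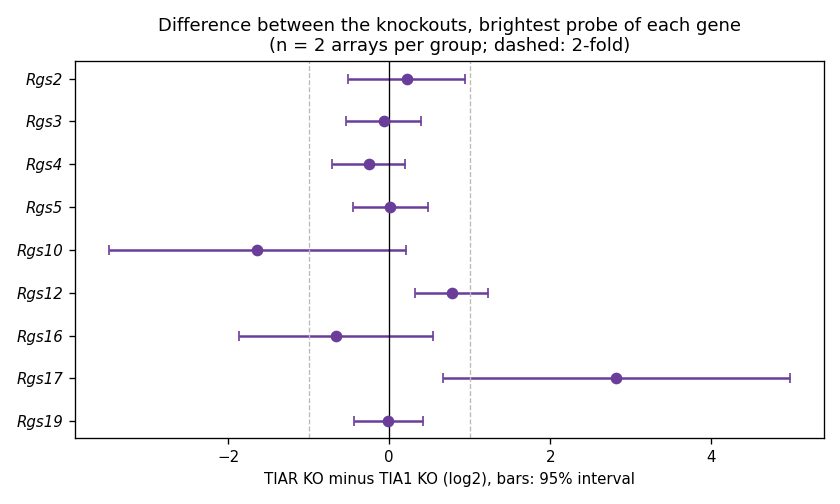
TIAR KO minus TIA1 KO (log2, horizontal axis) for the brightest probe of each member, with 95% intervals from limma and 2 arrays per group. The intervals of Rgs12 and Rgs17 lie above 0 before adjustment. That of Rgs2 is a description only, since Rgs2 was selected on its level in both knockouts.

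Genes whose pattern over the 6 arrays was closest to Rgs2 were sought among 18412 of the 34797 gene names on the array. The measure was the root mean square difference of the log2 values after each profile was centred on its mean. Its median over these genes was 2.11. The closest were Plxdc2, a membrane protein gene, at 0.33, Hand2, a transcription factor of limb and heart development, at 0.33, Reep1, a gene of the endoplasmic reticulum, at 0.34, and the late cornified envelope genes Lce1c at 0.37 and Lce1g at 0.41. Reep1 measured 11.45 and 11.59 in WT, 6.64 and 6.95 in TIA1 KO, and 6.72 on both TIAR KO arrays. Hand2 measured 11.88 and 12.05 in WT, 7.98 and 6.99 in TIA1 KO, and 6.85 and 7.16 in TIAR KO. All 5 genes were well above background on both WT arrays and on no knockout array, so Rgs2 differed from them in being still rated above background in TIAR KO. The 6 arrays are the same for all of these genes, and the likeness is a description.

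**Figure D4:**
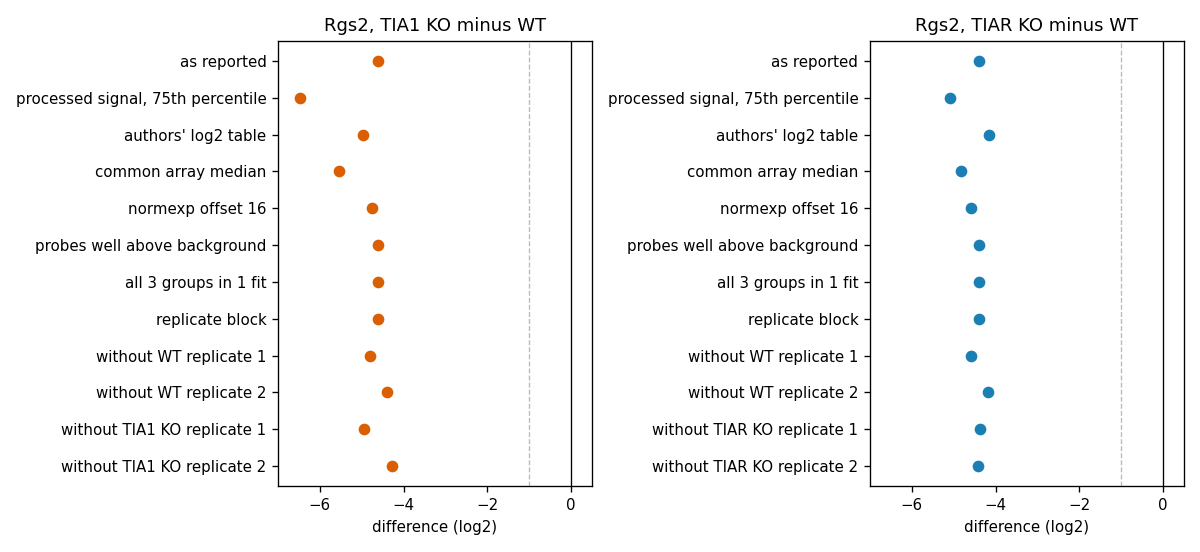
Difference of the brighter Rgs2 probe from WT (log2, horizontal axis) under each way of processing the arrays and without each array in turn, for TIA1 KO and TIAR KO. All values lie between -6.49 and -4.15, far from the dashed 2-fold line.

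The other genes of the pathway came from lists of 85 genes, of which 84 were measured. They were listed by their role in the pathway, with earlier results of these data known. In TIA1 KO 3 of the 84 passed both thresholds, 2 higher and 1 lower, beside 3.54% of all probes. In TIAR KO 13 passed, 7 higher and 6 lower, beside 5.76% of all probes. Since no probe passed in TIA1 KO without either WT array, neither did these 3 genes.

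Of the 12 other RGS genes, none passed on its brightest probe in either knockout in limma. With an unadjusted p under 0.05 there were 3 in TIA1 KO and 3 in TIAR KO, beside 27.8% and 20.2% of all probes. Rgs11, Rgs14, Rgs20 and Rgs21 were the only ones rated well above background on each array of some group. Rgs20, a relative of Rgs17 and Rgs19, measured 12.78 and 12.95 in WT, 11.96 and 12.19 in TIA1 KO, and 12.50 and 12.66 in TIAR KO on its brightest probe. The median difference of the list was -0.44 in TIA1 KO and -0.27 in TIAR KO.

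Among the 16 alpha subunits, on which RGS proteins act, none fell and 3 rose in TIAR KO. Gnao1, the Go subunit, measured 7.39 and 7.02 in WT and 9.66 and 9.60 in TIAR KO, a rise of 2.43 ± 0.18 (limma, adjusted p = 0.00195). Gnai1, a Gi subunit, rose by 1.67 ± 0.23 (limma, adjusted p = 0.0146) and Gna14, of the Gq class, by 1.05 ± 0.19 (limma, adjusted p = 0.0332). Both were near background on both WT arrays, so their folds were at least 2.79 and 2.06. With the processed signal the differences in TIAR KO were 3.81 for Gnao1, 4.37 for Gnai1 and 3.80 for Gna14. Gnai1 no longer passed without TIAR KO replicate 1 (1.77) or 2 (1.57), nor Gna14 without WT replicate 1 (1.08) or 2 (1.02) or TIAR KO replicate 1 (0.85) or with all 3 groups in 1 fit. In TIA1 KO Gnao1, named after its value was seen, was the only alpha subunit to pass, at 1.48 ± 0.20 (limma, adjusted p = 0.0439) and with 1 of the TIA1 KO arrays well above background, and it lost this without WT replicate 1 (1.66) or 2 (1.29), with the processed signal, in the authors' table, with the common median and with the replicate block. The median difference of the list was -0.07 in TIA1 KO and 0.16 in TIAR KO.

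Of the 17 beta and gamma subunits, which signal once the alpha subunit has left them, 2 passed in TIA1 KO and 3 in TIAR KO. Gng2 measured 12.72 and 13.14 in WT, 11.36 and 11.20 in TIA1 KO, and 10.50 and 10.34 in TIAR KO. It fell by 1.65 ± 0.21 in TIA1 KO (difference -1.65; limma, adjusted p = 0.0410) and by 2.51 ± 0.19 in TIAR KO (difference -2.51; limma, adjusted p = 0.00224), with no overlap between groups. Gng11 rose in TIA1 KO, from 10.96 and 11.13 in WT to 13.47 and 13.69 (2.54 ± 0.18; limma, adjusted p = 0.0122), and measured 10.84 and 10.19 in TIAR KO. Without WT replicate 1 or 2 the TIA1 KO differences were 2.46 and 2.63 for Gng11 and -1.86 and -1.44 for Gng2, and did not pass. The TIA1 KO call was also lost for both with the processed signal, for Gng2 in the authors' table and with the replicate block, and for Gng11 with the common median. With the common median the TIA1 KO difference was 1.05 for Gng11 and -3.15 for Gng2. Gnb4, a beta subunit, fell by 2.52 ± 0.27 in TIAR KO (limma, adjusted p = 0.00639). Gngt2, a gamma subunit known from cone photoreceptors, rose there by 1.72 ± 0.14 (limma, adjusted p = 0.00290), or 3.30-fold. It was near background in WT. With the processed signal its difference was 4.15. The median difference of the list was -0.06 in TIA1 KO and -0.04 in TIAR KO.

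Of the 14 effectors, the adenylyl cyclases that make cyclic AMP and the phospholipases C that Gq proteins switch on, 4 passed in TIAR KO and none in TIA1 KO, where 7 had an unadjusted p under 0.05 in limma. Adcy7 measured 11.74 and 11.89 in WT, 12.18 and 12.37 in TIA1 KO, and 9.05 and 9.23 in TIAR KO, a fall of 2.67 ± 0.16 in TIAR KO (difference -2.67; limma, adjusted p = 0.00094). Plcb1, a phospholipase C, rose by 1.59 ± 0.32 (limma, adjusted p = 0.0466), and Adcy3 by 1.40 ± 0.15 (limma, adjusted p = 0.00576), at least 2.20-fold, a call that was lost with all 3 groups in 1 fit. In TIA1 KO Adcy3 measured 10.08 and 8.62 against 6.66 and 6.72 in WT, at least 5.26-fold, which did not pass (limma, adjusted p = 0.0835). The fourth, Adcy9, named after its value was seen, fell by 1.12 ± 0.21 (limma, adjusted p = 0.0362). Plcb1 did not pass without WT replicate 1 (1.60) or 2 (1.59) or TIAR KO replicate 1 (1.12), nor Adcy9 without WT replicate 1 (-0.91) or TIAR KO replicate 1 (-0.99) or 2 (-1.25). With all arrays kept, Plcb1 was lost with the common median and with all 3 groups in 1 fit, and Adcy9 with the processed signal, with all 3 groups in 1 fit and with the replicate block. With the processed signal the TIAR KO values were 3.32 for Plcb1 and 3.37 for Adcy3. The cyclases thus moved both ways. The median difference of the list was 0.43 in TIA1 KO and 0.11 in TIAR KO.

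Of the 8 receptor kinases and arrestins, which silence the receptor itself, Arrb1 was the only gene to pass, with a fall of 1.00 ± 0.20 in TIAR KO (limma, adjusted p = 0.0442). It did not pass without any 1 of the 4 arrays, with differences from -1.20 to -0.81, nor in the authors' table, with the processed signal, with the lower offset or with all groups in 1 fit. None passed in TIA1 KO, where 3 had an unadjusted p under 0.05. The list's median difference was -0.42 in TIA1 KO and -0.59 in TIAR KO. Among 17 other measured genes for proteins with an RGS domain or that bind alpha subunits, Gpsm3 rose in TIAR KO from 8.99 and 9.21 in WT to 12.64 and 12.73 (3.58 ± 0.16; limma, adjusted p = 0.000438). It measured 8.79 and 9.22 in TIA1 KO, which lie on either side of the WT arrays. Gpsm2, like Gpsm3 a guard of alpha subunits in their GDP form, fell by 1.14 ± 0.14 in TIAR KO (limma, adjusted p = 0.0116), but not without WT replicate 2 (-1.11) or TIAR KO replicate 2 (-1.07) or with the processed signal. None of the 17 passed in TIA1 KO, where 3 had an unadjusted p under 0.05, and the median difference was -0.12 in TIA1 KO and 0.02 in TIAR KO.

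**Figure D5:**
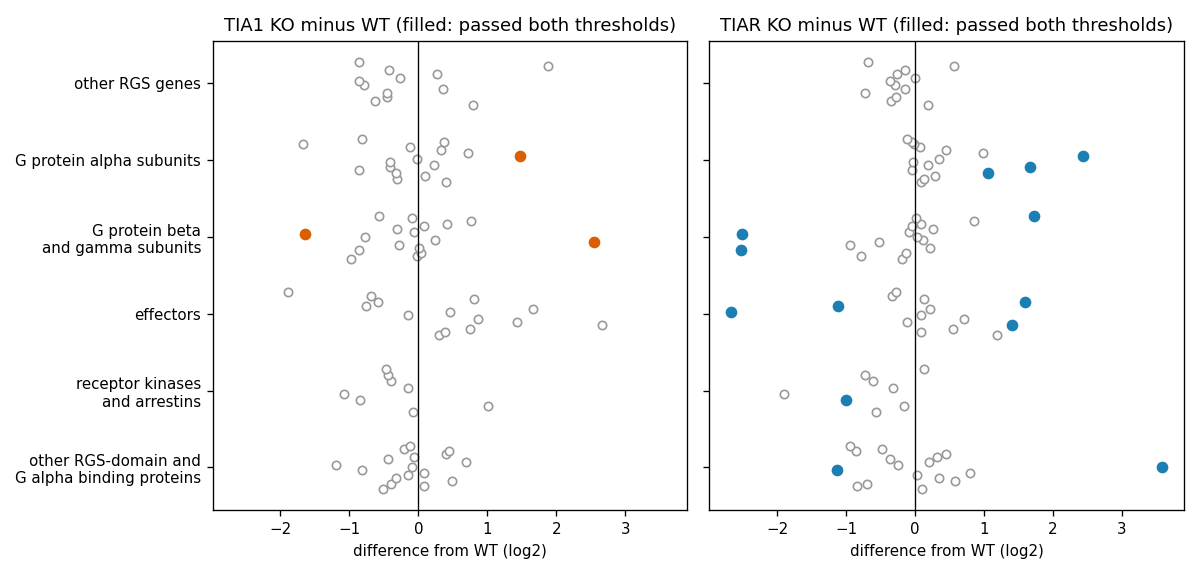
Difference from WT (log2, horizontal axis) of the 84 measured pathway genes, by list, in TIA1 KO and TIAR KO. Each point is a gene read from its brightest probe, and filled points passed both thresholds, 3 in TIA1 KO and 13 in TIAR KO.

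Between the knockouts, 5 of the 84 genes passed both thresholds, 3 higher and 2 lower in TIAR KO, beside 3.35% of all probes. Gpsm3 was higher by 3.68 ± 0.21 (limma, adjusted p = 0.00942), Gngt2 by 2.30 ± 0.18 (limma, adjusted p = 0.0151) and Gnai1 by 2.08 ± 0.19 (limma, adjusted p = 0.0217). Gngt2 and Gnai1 were near background on both TIA1 KO arrays, so their folds were at least 3.02 and 2.52. Adcy7 was lower, at -3.13 ± 0.17 (limma, adjusted p = 0.00901), and so was Gng11, at -3.07 ± 0.28 (limma, adjusted p = 0.0210). Without TIAR KO replicate 1 or 2 no probe passed in this comparison, while 6318 and 6402 had an unadjusted p under 0.05. The differences were then 3.72 and 3.63 for Gpsm3, 2.28 and 2.32 for Gngt2, 2.18 and 1.98 for Gnai1, -3.04 and -3.23 for Adcy7, and -3.39 and -2.75 for Gng11.

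Markers of the labelled cell type and of others differed between the lines. Of 11 fibroblast markers, 7 and 9 were well above background in WT, 8 and 9 in TIA1 KO, and 10 and 10 in TIAR KO. Lum was near background on all arrays, Pdgfra on both WT arrays, Dcn on 1 WT and 1 TIA1 KO array, and Thy1 on 1 WT and both TIA1 KO arrays. Their summed linear level was 533595 and 567212 in WT, 1314881 and 1289767 in TIA1 KO, and 1392397 and 1418832 in TIAR KO, with S100a4 or Col1a2 as the brightest probe, and 7 of the 11 rose in TIA1 KO and 8 in TIAR KO. Of 10 pericyte and smooth muscle markers, a list that bears on Rgs5, the summed level was 44035 and 55039 in WT, 288678 and 318056 in TIA1 KO, and 511803 and 461702 in TIAR KO. Such a sum adds probes of unequal strength and is led by the brightest, which was that of Mcam in WT and of Acta2 in the knockouts. Acta2 measured 12.63 and 12.99 in WT, 17.58 and 17.73 in TIA1 KO, and 18.45 and 18.26 in TIAR KO, whereas Myh11, Kcnj8 and Abcc9 were near background everywhere. In that list 4 rose in TIA1 KO, and in TIAR KO 5 rose and 1 fell.

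Of 6 leukocyte markers Ptprc and Emr1 were near background on all arrays, and the brightest probe was that of Itgam, at 11.94 and 11.47 in WT, 13.65 and 13.40 in TIA1 KO, and 11.89 and 11.85 in TIAR KO. In limma 1 of the 6 rose in TIA1 KO and none in TIAR KO, where 1 had an unadjusted p under 0.05. Of 5 endothelial markers Cdh5 was near background on all arrays, the Kdr probe was the brightest, and none passed in limma, with 1 in TIA1 KO and 2 in TIAR KO at an unadjusted p under 0.05. The summed level of the endothelial list was 3116 and 3431 in WT, 3639 and 3465 in TIA1 KO, and 3589 and 3979 in TIAR KO. Of 5 epithelial markers Epcam was near background on all arrays but 1. The list's summed level was 915 and 949 in WT, 1153 and 1511 in TIA1 KO, and 2415 and 2387 in TIAR KO, and 1 rose in TIA1 KO and 3 in TIAR KO. Of 4 measured neural markers Gfap was near background on all arrays and none passed against WT in limma, with 1 at an unadjusted p under 0.05 in each knockout. The part of these marker differences in the levels of the RGS genes was not tested, and in bulk RNA fewer cells of a kind and less RNA per cell cannot be told apart.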

How the data were processed

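The authors deposited the scanner intensity of every spot with its local background and quality flags, and a table of log2 values per probe normalized with limma, whose column medians were between 7.27 and 7.31. Whether that table was filtered is not given in the sources used here. Mean intensities and median backgrounds were corrected by normexp (offset 50), log2 transformed, and made alike by a single loess pass (1 pass) toward the average array and then by quantiles. Control and outlier spots were left out and spots of a probe averaged. The result correlated with the authors' table at 0.997 or more for each array. Probe positions are those of the scanner files (mm9). Of the 18 member probes, 17 had an accession in a RefSeq table of GRCm38.p6, and all 17 had the same symbol there.

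Each comparison was fitted with limma (version 3.58.1, R 4.3.3) on its own 4 arrays, and a probe passed at a Benjamini-Hochberg adjusted p under 0.05 over all 55681 probes and a fold change above 2. The fit was tested on simulated data. Where a gene had more than 1 probe, the brightest stood for it. Of the leukocyte markers, 1 was left out of the list and is not reported here. The members and all lists were chosen with earlier results of these data known. Named genes were every member, Tia1 and Tial1, up to 3 passing genes of the largest difference per pathway list and comparison, if both arrays of the group with more signal were well above background, and the 5 genes closest to Rgs2. Alternatives were the processed signal scaled to its 75th percentile, the authors' table, a common array median, a normexp offset of 16, a filter on dim probes, all 3 groups in 1 fit, a replicate block and leaving out each array. P-values compare a group difference with the spread between the 2 arrays of each group, pooled and drawn by limma toward that of all probes. They do not cover the spread between lines of the same genotype.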

Additional observations from a re-analysis of the deposited data

Results flagged for a closer look

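In a direct test, 5 pathway genes differed between the knockouts, each given as TIAR KO minus TIA1 KO on the log2 scale with 2 arrays per group. The difference was 3.68 for Gpsm3, 2.30 for Gngt2, 2.08 for Gnai1, -3.07 for Gng11 and -3.13 for Adcy7. For Gngt2 and Gnai1 the TIA1 KO side was near background, and the folds were at least 3.02 and 2.52. None of the 9 RGS members passed this test in limma, and 2 of them had an unadjusted p under 0.05. The test was lost for all 5 genes when either TIAR KO array was left out, where no probe on the array passed and 6318 and 6402 had an unadjusted p under 0.05, and under the replicate block. It was lost for Gnai1, Gng11 and Gngt2 with the processed signal. Without either TIAR KO array the spread came from the TIA1 KO pair alone, and without either TIA1 KO array from the TIAR KO pair alone. Nothing on these genes is read from passing or failing in those settings.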

How the results depend on the processing

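The brighter Rgs2 probe was lower than in WT in both knockouts under every setting run. Its difference from WT was between -6.49 and -4.61 in TIA1 KO and between -5.08 and -4.15 in TIAR KO over the settings with all arrays. In TIA1 KO no probe on the array passed with the processed signal scaled to the 75th percentile, where the median of all probes was 1.98, or without WT replicate 1 or 2, while 27765, 7202 and 7415 had an unadjusted p under 0.05. The cause was not tested.

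The counts of members against WT are descriptions, since the set was selected on Rgs2 there. Of the 9 members, 1 lay past the thresholds in TIA1 KO, beside 3.54% of all probes. This count was 0 with the processed signal, beside 0% of all probes. It was 2 with all 3 groups in 1 fit, beside 7.16%, and 6 with a common array median, beside 28.4%. In TIAR KO it was 1, beside 5.76%, and 2 with a common median (Rgs17 added), beside 7.43%. Between the knockouts it was 0, beside 3.35%, and 2 with a common median (Rgs12 and Rgs17), beside 14.9%. Member counts with an array left out are not given here. Where 1 array of a group is left, the other group gives the spread and the lone array is assumed to vary like it. The gap between the TIA1 KO arrays of Rgs17 then drops out. With a common median the median of all probes in TIA1 KO moved to -0.67, 11.9% of the passing probes were higher, and Rgs3 (second probe, -1.42), Rgs10 (-1.38) and Rgs19 (-1.43) changed sign against WT. Relative to that shift they were lower by less than 1. The share of higher probes was 34.4% in TIAR KO and 87.2% between the knockouts under that setting.

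For the pathway genes, the count in TIA1 KO was 3, and 0 with the processed signal, 1 in the authors' table, 37 with a common median, 5 with the filter, 5 with all groups in 1 fit and 0 to 17 when an array was left out. The share of all probes that passed moved too. In TIA1 KO it was 3.54%, and 0% with the processed signal, 2.35% in the authors' table and 28.4% with a common median. It was 12.5% of the probes kept by the filter and 7.16% with all groups in 1 fit. Between the knockouts the share was 3.35%, and 14.9% with a common median, 12.1% with the filter and 5.72% with all groups. Where an array was left out, the other group gave the spread, and nothing is read from the count. In TIAR KO the pathway count was 13 (5.76%), 13 with the filter (13.2%) and 8 with all groups in 1 fit (4.6%). Between the knockouts it was 5, and 22 with a common median, 10 with the filter, 10 with all groups and 0 to 18 when an array was left out.

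Same-numbered arrays did not deviate together after normalization (correlations 0.08, 0.03 and -0.07). These values cannot decide whether same-numbered samples were prepared together. With the replicate block 1, 1 and 0 members passed, the pathway counts were 1 in TIA1 KO and 0 between the knockouts, and over all probes 671, 3308 and 0 passed in TIA1 KO, TIAR KO and between them.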

Other observations

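Rgs20 has a pair of probes that share 18 bases, with starts 42 bases apart on chromosome 1 (chr1:4900008-4900067 and chr1:4900050-4900109), and they did not read alike. They were chosen after their values were seen. The downstream probe is the brightest Rgs20 probe, which passed in neither knockout (differences of -0.79 in TIA1 KO and -0.29 in TIAR KO). With the common median it differed by -2.37 in TIA1 KO and passed, a setting that moved the median of all probes to -0.67. The upstream probe measured 10.20 and 10.81 in WT, 8.05 and 8.11 in TIA1 KO, and 6.64 and 6.85 in TIAR KO, and it was well above background on the WT arrays alone. Its difference from WT was -2.43 ± 0.25 in TIA1 KO (limma, adjusted p = 0.0278), or 5.39-fold lower. In TIAR KO the difference was -3.76 ± 0.24 (limma, adjusted p = 0.00125), at least 11.9-fold lower. The upstream probe differed by -7.02 in TIAR KO with the processed signal, and by -2.97 in TIA1 KO with the common median. In TIA1 KO it did not pass without WT replicate 1 (-2.73) or 2 (-2.13), with the processed signal (-2.61) or with the replicate block. The cause was not tested, and the strains of the lines differ.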
